A study of Mus musculus with 12 samples.

Results

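Matrix metalloproteinases were followed across 4 groups of cultured calvarial osteoblasts. The set held 10 genes taken by name (Mmp2, Mmp3, Mmp9, Mmp10, Mmp11, Mmp13, Mmp14, Mmp16, Mmp19 and Mmp23), out of 49585 genes in the deposited count table. All 10 were among the 16318 genes with enough counts to be tested. RNA was sequenced in bulk from osteoblasts of C57BL/6J pups aged P3 to P5, to ask how loss of Bcl3, a regulator of NF-κB, alters osteoblast differentiation. The groups were day 3 Bcl3-/-, day 3 WT, day 1 Bcl3-/- and day 1 WT, with 3 libraries each and 12 in all, WT pups being littermates. Every group, WT included, had received 50 µg/mL ascorbic acid and 2 mM β-glycerophosphate from day 0, and the libraries here hold no culture without induction. The labels give 6 codes, each found on both days and read here as a culture made from up to 3 pooled calvariae. On this reading, the 2 days of a culture share their animals.

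Matrix metalloproteinases are zinc-dependent proteases that cut collagens and other components of the extracellular matrix. They are made as inactive precursors, some secreted and some held at the cell membrane, and become active once their prodomain is removed, for example by furin-like convertases, by plasmin or by another metalloproteinase. Tissue inhibitors of metalloproteinases (Timp proteins) bind and block the active enzymes. In bone, Mmp13 is the collagenase of osteoblasts and hypertrophic chondrocytes, Mmp9 is best known from osteoclasts, and Mmp14 is the membrane protease that activates Mmp2.

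Of the members, 3 lay in one cluster of 10 metalloproteinase genes on chromosome 9, where Mmp13, Mmp3 and Mmp10 follow each other on the plus strand among other family members (GRCm38, positions 7272514 to 7699585, GENCODE M21 annotation). The upstream sequences of these 3 genes are shown because 2 of them, Mmp13 and Mmp3, changed most between the groups. Each run is the 250 bases before the RefSeq transcription start (GRCm38.p6, plus strand), at chr9:7272264-7272513 for Mmp13, chr9:7445572-7445821 for Mmp3 and chr9:7502092-7502341 for Mmp10. Capitals mark matches to motifs searched on both strands, AP-1 (TGANTCA), ETS (GGAAGT) and RUNX (TGTGGT, or ACCACA on the other strand).
Mmp13: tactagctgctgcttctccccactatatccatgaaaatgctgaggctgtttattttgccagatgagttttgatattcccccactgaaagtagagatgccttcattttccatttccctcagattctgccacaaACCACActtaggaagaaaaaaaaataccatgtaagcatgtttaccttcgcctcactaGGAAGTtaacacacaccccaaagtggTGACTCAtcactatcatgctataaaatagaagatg
Mmp3: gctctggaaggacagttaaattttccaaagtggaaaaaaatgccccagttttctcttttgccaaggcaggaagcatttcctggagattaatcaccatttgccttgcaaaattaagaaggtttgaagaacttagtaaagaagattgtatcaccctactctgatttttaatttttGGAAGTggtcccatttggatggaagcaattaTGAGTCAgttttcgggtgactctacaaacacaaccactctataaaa
Mmp10: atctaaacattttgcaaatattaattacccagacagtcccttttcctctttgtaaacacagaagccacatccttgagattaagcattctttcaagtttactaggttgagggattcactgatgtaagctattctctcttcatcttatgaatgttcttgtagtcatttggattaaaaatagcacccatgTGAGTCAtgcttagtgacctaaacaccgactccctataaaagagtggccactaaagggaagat
The AP-1 letters stood 35 to 29 bases upstream of the start in Mmp13, 46 to 40 in Mmp3 and 63 to 57 in Mmp10, and 6.75% of 32841 promoter windows of this length held such a match. ETS letters were found in Mmp13, at 61 to 56 bases, and in Mmp3, at 77 to 72 bases, against 19.7% of all windows. A RUNX match was found in Mmp13 on the minus strand, 118 to 113 bases upstream, against 14% of all windows. The upstream window of Mmp14 and 1 of the 2 windows of Mmp23 held a RUNX match, and the other window of Mmp23 and that of Mmp11 held none of these motifs. No window of a member matched the NF-κB pattern searched, which 1.41% of all windows held. That pattern was narrower than the NF-κB consensus, so sites with other letters could not match, and their absence was not tested. These matches are descriptions of the letters only. Promoters of Mmp2, Mmp9, Mmp16 and Mmp19 were not analysed here.

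Reads assigned to genes numbered between 20009732 and 41953891 per library. Bcl3 itself had 17.5, 19.7 and 19.2 CPM (counts scaled by library size) in day 1 libraries labelled Bcl3-/-, against 17.9, 21.8 and 17.8 CPM in day 1 WT libraries, so that it did not separate the genotypes on that day. On day 3 it had 10.2, 9.71 and 8.31 CPM in libraries labelled Bcl3-/-, against 14.8, 15.9 and 12.8 CPM in WT libraries (log2 fold change -0.62, adjusted p = 0.00863 by edgeR's quasi-likelihood test). Which part of the gene the allele lacks was not analysed here, so directions by genotype rest on the labels. Osteoblast markers were mostly Col1a1 and Spp1 in CPM, and Bglap, the gene of osteocalcin, stayed under 1 CPM in every group but day 3 Bcl3-/-. In deposited values scaled also by transcript length (FPKM), Bglap had 24.1 to 40.0 in day 3 libraries labelled Bcl3-/- and 5.06 to 11.6 in day 3 WT. On day 1 it had 6.69 to 12.9 FPKM in libraries labelled Bcl3-/- and 1.60 to 6.53 FPKM in WT. These measures place Bglap at unlike levels, and the reason was not tested.

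Per transcript length, 4 members made up most of the family. In FPKM (fragments scaled by transcript length and library size, as deposited), Mmp14 averaged 608 ± 47.4 in day 3 libraries labelled Bcl3-/-, 513 ± 33.4 in day 3 WT, 412 ± 4.09 in day 1 libraries labelled Bcl3-/- and 311 ± 19.3 in day 1 WT libraries (SD, n = 3 each). Mmp2 followed at 418 ± 29.2, 409 ± 19.0, 286 ± 10.7 and 259 ± 27.2 FPKM in the same groups. Mmp13 averaged 303 ± 60.4, 389 ± 33.7, 198 ± 24.3 and 48.2 ± 9.75 FPKM, so that in day 3 WT libraries it did not differ from Mmp2 beyond their spread, and in day 1 WT libraries it did not differ from Mmp23, at 63.4 ± 15.0 FPKM, beyond theirs.

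Mmp13 was the member whose share moved most. It took 17.2 to 21.5% of the summed FPKM of the 10 genes in day 3 libraries labelled Bcl3-/-, 23.6 to 28.7% in day 3 WT, 16.7 to 20.2% in day 1 libraries labelled Bcl3-/- and 5.62 to 7.17% in day 1 WT libraries. The summed FPKM was 1572 ± 133 in day 3 libraries labelled Bcl3-/-, 1504 ± 50.6 in day 3 WT, 1051 ± 27.0 in day 1 libraries labelled Bcl3-/- and 721 ± 64.3 in day 1 WT libraries. Below these, Mmp16 averaged between 23.0 and 43.4 FPKM by group, Mmp11 between 9.26 and 19.9 and Mmp19 between 6.19 and 9.25. Mmp3, Mmp9 and Mmp10 were the scarcest, with group means of 0.758 to 6.95, 0.266 to 1.86 and 0.224 to 0.887 FPKM.

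**Figure D1:**
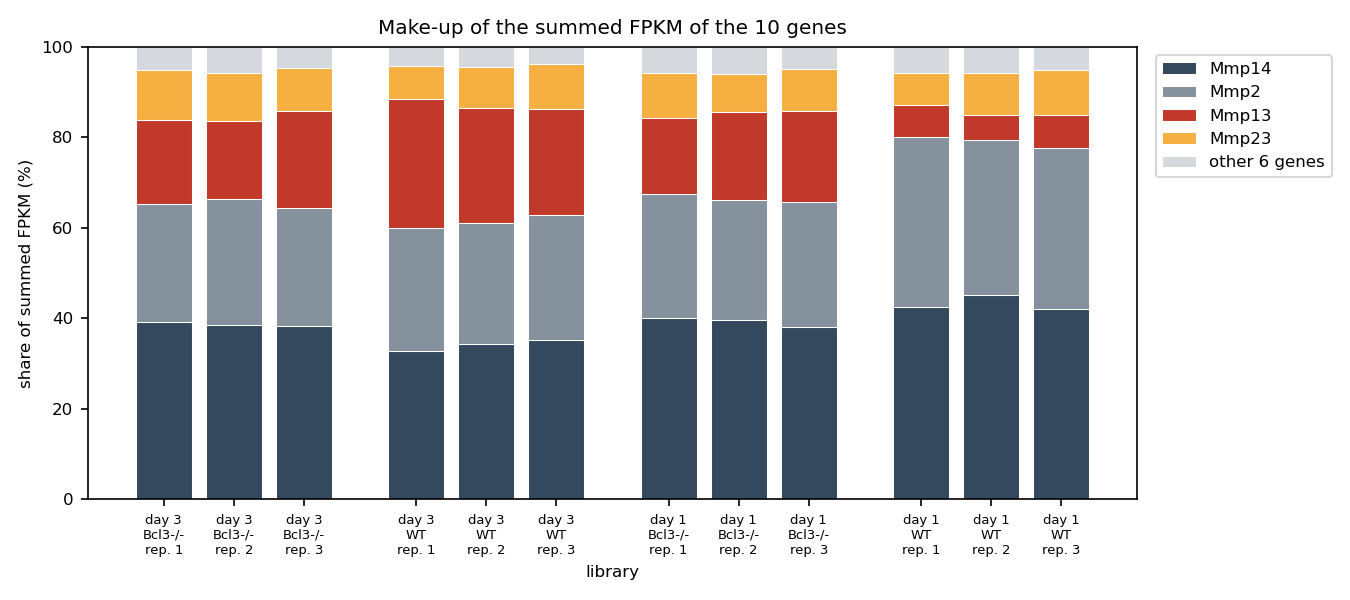
Stacked bars give each gene's share, in percent, of the summed FPKM of the 10 metalloproteinase genes in each of the 12 libraries, with the 6 scarcer genes pooled. The Mmp13 share sits between 5.62 and 7.17% in the 3 day 1 WT libraries and at 16.7% or more in the other 9.

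On day 1, 6 of the 10 members were higher in libraries labelled Bcl3-/- than in WT libraries, led by Mmp13 and Mmp3, and none was lower. Across all genes tested, 9.03% were higher and 6.26% lower by the same rule (Benjamini-Hochberg adjusted p under 0.05 over 16318 genes, edgeR's quasi-likelihood test), and the median log2 fold change was 0.50 over the members and 0.00 over all genes. The groups did not overlap in CPM for 8 members, all higher in libraries labelled Bcl3-/-, against 19.4% of all genes higher and 18.9% lower. In bulk RNA, a difference in the number of cells that make a transcript and one in the amount per cell cannot be told apart.

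Mmp13, the collagenase, had 428, 513 and 558 CPM in day 1 libraries labelled Bcl3-/-, against 123, 93.1 and 142 CPM in day 1 WT libraries. Every library labelled Bcl3-/- lay above every WT library. The fold change was 4.18 (log2 2.06 ± 0.17 SE, adjusted p = 0.000113), the seventh smallest p of all genes.

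Among the stromelysins, which cut proteoglycans and activate other metalloproteinases, Mmp3 had 5.34, 6.10 and 6.98 CPM in day 1 libraries labelled Bcl3-/-, against 0.678, 0.934 and 1.97 CPM in WT libraries. It rose by a log2 fold change of 2.31 ± 0.37 (adjusted p = 0.00206), and its groups did not overlap. Mmp10, in the same cluster, stayed under 0.7 CPM in all 6 libraries, with a log2 fold change of -0.11 ± 0.84 (adjusted p = 0.952). Counts of this size, 5 to 21 reads per library, could not resolve a change in Mmp10, and 65 of the 75-base windows of Mmp3 and Mmp10 transcripts occur in both genes.

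The gelatinases, which cut denatured collagen, were not called. Mmp9 had 1.31, 2.86 and 2.77 CPM in day 1 libraries labelled Bcl3-/-, against 0.859, 0.638 and 0.879 CPM in WT libraries, with no overlap (log2 1.55 ± 0.50, adjusted p = 0.0543). It lay close to the threshold, and passed it in 8 of 22 alternatives, among them without day 1 Bcl3-/- replicate 1 or without any 1 of the 3 day 3 WT libraries (adjusted p between 0.0133 and 0.0488). Mmp2 had 786, 775 and 850 CPM, against 713, 637 and 784 CPM in WT libraries, and these ranges overlapped (log2 0.18 ± 0.08, adjusted p = 0.188; 0.0492 without day 1 WT replicate 3).

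The membrane-bound members Mmp14, Mmp16 and Mmp23 were higher by smaller folds than Mmp13. Mmp14 had 989, 1010 and 1012 CPM in day 1 libraries labelled Bcl3-/-, against 703, 722 and 806 CPM in WT libraries (log2 0.43 ± 0.08, adjusted p = 0.00375). Mmp16, a relative of Mmp14, had 88.6, 90.9 and 81.0 CPM, against 72.6, 61.8 and 67.1 CPM (log2 0.37 ± 0.08, adjusted p = 0.0071). Neither gene overlapped between the genotypes. Mmp23, which is anchored through its amino end, had 114, 99.3 and 113 CPM, against 52.5, 68.8 and 88.2 CPM in WT libraries (log2 0.64 ± 0.16, adjusted p = 0.0211). Its call was lost without day 1 Bcl3-/- replicate 1 or 3 or day 1 WT replicate 1 or 2 (adjusted p between 0.0782 and 0.0904).

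Mmp11, a secreted member that furin-like convertases activate inside the cell, had 27.1, 28.8 and 25.4 CPM in day 1 libraries labelled Bcl3-/-, against 18.0, 18.2 and 19.1 CPM in WT libraries (log2 0.56 ± 0.09, adjusted p = 0.0026). Mmp19, another secreted member, had 28.0, 29.7 and 27.2 CPM, against 20.8, 19.0 and 23.4 CPM (log2 0.43 ± 0.16, adjusted p = 0.0931; 0.0445 without day 3 Bcl3-/- replicate 1 and 0.0127 without day 3 Bcl3-/- replicate 3). Both ranges were separate. Mmp11 overlaps Chchd10 and Mmp19 overlaps Tmem198b and an antisense gene, all on the opposite strand, and 2.79 and 23.2% of their 75-base transcript windows also occur in those genes. The strand setting of the counting was not given in the sources used here, so reads from these shared windows cannot be told apart. Mmp16 also overlaps a pseudogene on the opposite strand.

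**Figure D2:**
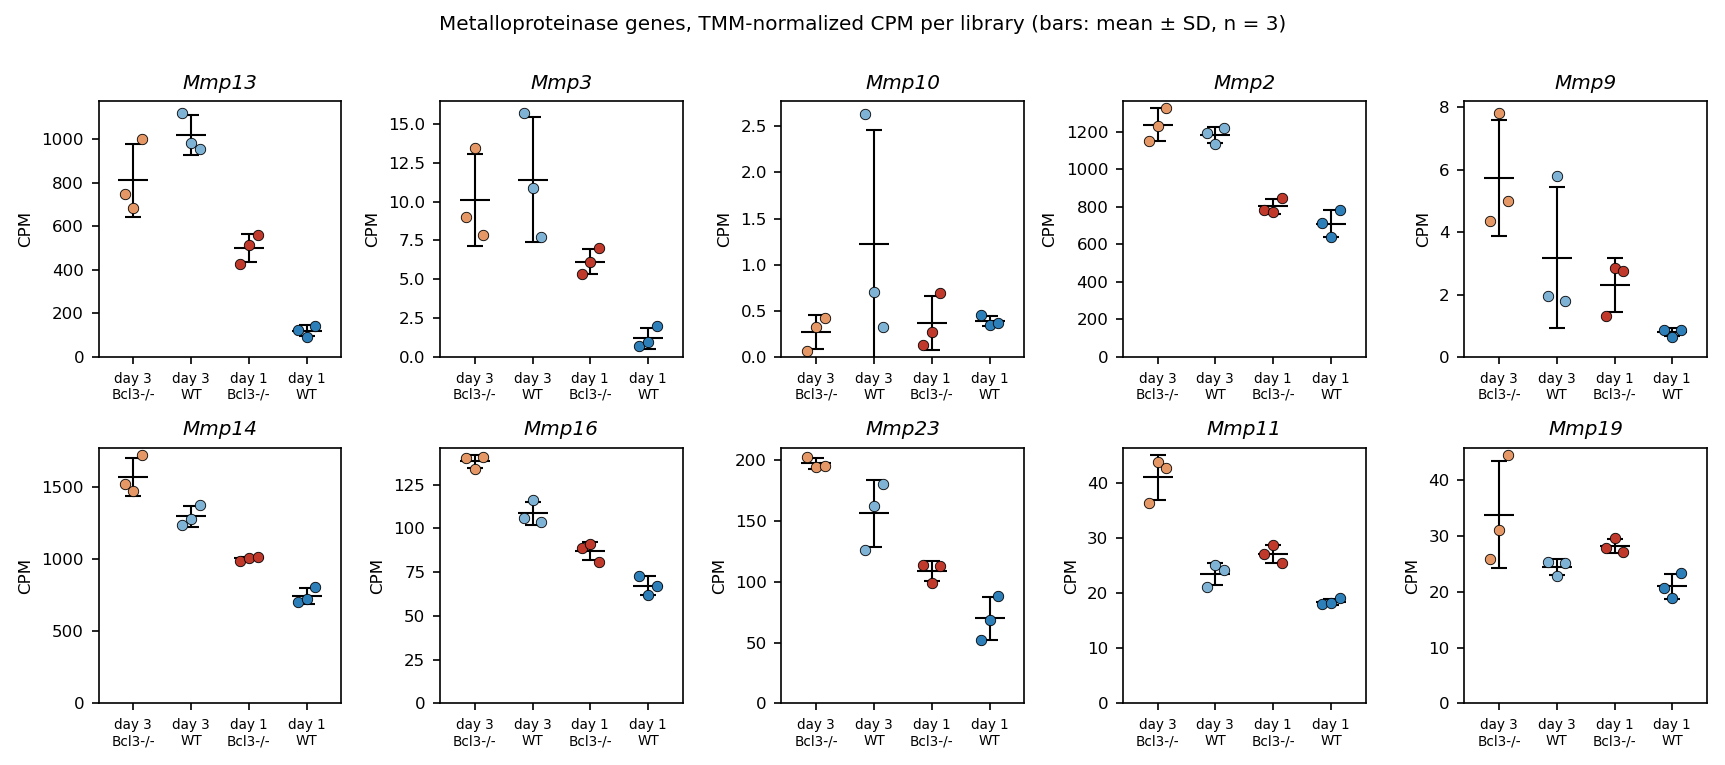
Each panel plots the CPM of one gene per library on its own linear axis from 0, for day 3 Bcl3-/-, day 3 WT, day 1 Bcl3-/- and day 1 WT libraries, and bars show the mean and SD (n = 3). Mmp13 lies between 428 and 558 CPM in day 1 libraries labelled Bcl3-/- and between 93.1 and 142 CPM in day 1 WT libraries, while on day 3 the genotypes overlap; the lower bar of Mmp10 in day 3 WT libraries runs below 0 and is not drawn past it.

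On day 3, neither Mmp13 nor Mmp3 was called, and Mmp11, Mmp16 and Mmp14 were higher in libraries labelled Bcl3-/-. These were 3 of 10 members, with none lower, against 4.78% of all genes called higher and 5.6% lower on that day. The groups were separate and higher in libraries labelled Bcl3-/- for 5 members, against 13.1% of all genes higher and 15.6% lower. The median log2 fold change was 0.31 over the members and 0.00 over all genes.

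Mmp13 had 748, 682 and 998 CPM in day 3 libraries labelled Bcl3-/-, against 1121, 979 and 953 CPM in day 3 WT libraries. The third library labelled Bcl3-/- lay among the WT libraries, and the difference did not pass the test (log2 -0.33 ± 0.17, 95% interval -0.657 to -0.004, adjusted p = 0.231). Mmp3 had 8.97, 13.4 and 7.84 CPM, against 15.7, 10.9 and 7.70 CPM in WT libraries, with full overlap (log2 -0.17 ± 0.31, interval -0.78 to 0.45, adjusted p = 0.775). These intervals exclude a rise of the size seen on day 1 for both genes.

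Mmp11 had the clearest difference on day 3, with 36.4, 43.9 and 42.8 CPM in libraries labelled Bcl3-/-, against 21.2, 25.0 and 24.3 CPM in WT libraries (log2 0.80 ± 0.09, adjusted p = 0.00105, the 20th smallest p of all genes). Mmp16 had 140, 134 and 141 CPM, against 106, 116 and 104 CPM (log2 0.35 ± 0.08, adjusted p = 0.0134; 0.0568 without day 3 WT replicate 1). Mmp14 had 1519, 1473 and 1720 CPM, against 1233, 1275 and 1376 CPM (log2 0.28 ± 0.08, adjusted p = 0.0391). The Mmp14 call was lost without any 1 of the 3 day 3 Bcl3-/- libraries or without day 3 WT replicate 1 or 2 (adjusted p between 0.051 and 0.151).

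The remaining members were not called on day 3. Mmp23 had 203, 195 and 195 CPM in libraries labelled Bcl3-/-, against 126, 162 and 180 CPM in WT libraries (log2 0.34 ± 0.16, adjusted p = 0.206). Mmp9 had 4.36, 7.84 and 5.00 CPM, against 1.97, 5.80 and 1.78 CPM, where day 3 WT replicate 2 lay among the libraries labelled Bcl3-/- (log2 0.85 ± 0.43, adjusted p = 0.226). Without that WT library the log2 fold change of Mmp9 was 1.62 (adjusted p = 0.0248). Mmp10 was at 0.065, 0.324 and 0.421 CPM, against 2.64, 0.706 and 0.326 CPM, and its log2 fold change of -2.21 ± 0.82 was -0.98 without day 3 WT replicate 1 (adjusted p = 0.108; 0.522 without that library and 0.0408 without day 3 WT replicate 3). Mmp19 and Mmp2 had log2 fold changes of 0.46 ± 0.16 (adjusted p = 0.0831; 0.0169 without day 3 Bcl3-/- replicate 1) and 0.06 ± 0.08 (adjusted p = 0.672).

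**Figure D3:**
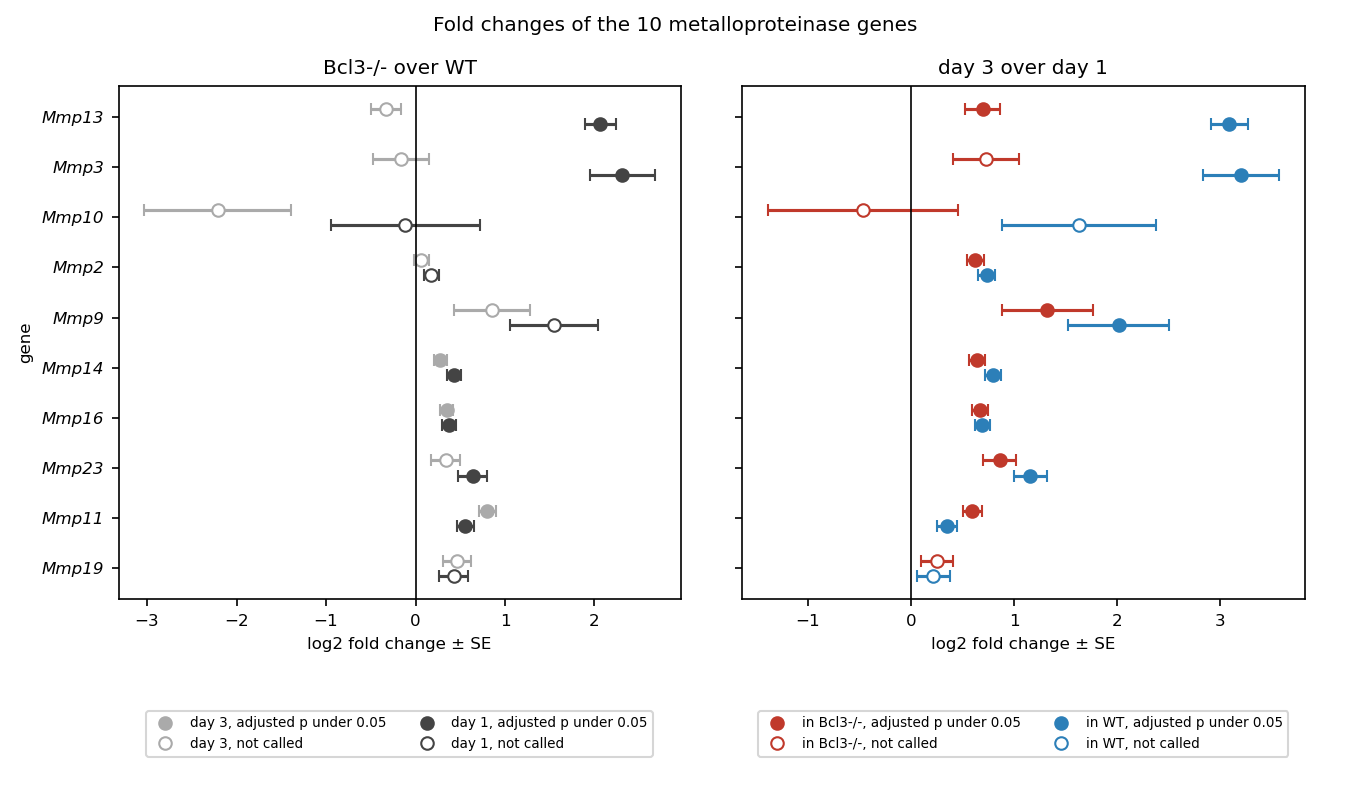
Points give the log2 fold change of each gene and bars its SE, with Bcl3-/- over WT on the left for day 3 and day 1, and day 3 over day 1 on the right for each genotype. Filled points passed the adjusted p of 0.05. Mmp13 and Mmp3 sit at 2.06 and 2.31 on day 1 and at -0.33 and -0.17 on day 3.

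Between the days, most members rose in both genotypes. In libraries labelled Bcl3-/-, 7 of 10 members were higher on day 3 than on day 1, against 16.2% of all genes called higher and 17.2% lower (33.4% together), with a median log2 fold change of 0.66 over the members and 0.00 over all genes. In WT libraries 8 of 10 were higher on day 3, against 20.6% of all genes called higher and 17.9% lower (38.5% together), with medians of 0.98 and 0.00. No member was called lower in either. Members whose days did not overlap, with day 3 higher, numbered 8 in each genotype, against 23.3% of all genes higher and 23.9% lower in libraries labelled Bcl3-/-, and 25.1% and 23.7% in WT libraries.

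The rises of Mmp14, Mmp2, Mmp16 and Mmp23 passed the test in both genotypes. Mmp14 rose by a log2 fold change of 0.65 ± 0.08 in libraries labelled Bcl3-/- and 0.80 ± 0.08 in WT, and Mmp2 by 0.62 ± 0.08 and 0.74 ± 0.08. Mmp16 rose by 0.67 ± 0.08 and 0.70 ± 0.08, and Mmp23 by 0.86 ± 0.16 and 1.16 ± 0.16 (adjusted p of 0.00188 or less for these 8 values). The difference between the genotypes' changes was -0.15 for Mmp14 (95% interval -0.37 to 0.06), -0.11 for Mmp2 (-0.34 to 0.12), -0.02 for Mmp16 (-0.23 to 0.19) and -0.30 for Mmp23 (-0.75 to 0.15), none past the test (adjusted p of 0.662 or more).

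Mmp11 rose by 0.60 ± 0.09 in libraries labelled Bcl3-/- (adjusted p = 0.000498) and by 0.35 ± 0.09 in WT libraries (adjusted p = 0.0101; 0.0535 without day 1 WT replicate 1 and 0.0519 without day 1 WT replicate 2). Mmp9 rose by 1.33 ± 0.44 in libraries labelled Bcl3-/- (adjusted p = 0.0348) and by 2.02 ± 0.49 in WT libraries (adjusted p = 0.00618). The WT value of Mmp9 was 1.25 without day 3 WT replicate 2, still past the test, and its culture ratios were 2.29, 9.10 and 2.03. The Mmp9 call in libraries labelled Bcl3-/- was lost without any of the 3 day 1 libraries or without day 3 replicate 2 of that genotype (adjusted p between 0.0568 and 0.143). Mmp19 had values of 0.26 ± 0.16 in libraries labelled Bcl3-/- and 0.22 ± 0.16 in WT (adjusted p = 0.234 and 0.309), and Mmp10 of -0.47 ± 0.92 and 1.63 ± 0.75 (adjusted p = 0.735 and 0.106). Mmp19 passed in libraries labelled Bcl3-/- without day 3 Bcl3-/- replicate 1 (adjusted p = 0.0433) and Mmp10 in WT without day 3 WT replicate 3 (adjusted p = 0.0393).

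Mmp13 and Mmp3 were the members whose change over time differed by genotype. Within cultures, the day 3 to day 1 ratio of Mmp13 was 1.75, 1.33 and 1.79 in those labelled Bcl3-/-, against 9.09, 10.5 and 6.69 in WT cultures. The log2 fold change was 0.70 ± 0.17 in libraries labelled Bcl3-/- (adjusted p = 0.00748) and 3.09 ± 0.18 in WT libraries (adjusted p = 1.99e-06, the fifth smallest p of all genes). Every culture thus held more Mmp13 on day 3, by less in each of the cultures labelled Bcl3-/- than in any WT culture.

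The interaction of genotype and time was -2.39 ± 0.24 on the log2 scale for Mmp13 (95% interval -2.86 to -1.92, adjusted p = 0.00527), the smallest p of the 16318 genes. It was called in all 22 alternatives, with adjusted p between 9.65e-18 and 0.0443. Mmp3 had ratios of 1.68, 2.20 and 1.12 in cultures labelled Bcl3-/-, against 23.1, 11.6 and 3.91 in WT cultures. Its log2 fold change was 0.72 ± 0.32 in libraries labelled Bcl3-/- (adjusted p = 0.101) and 3.20 ± 0.37 in WT libraries (adjusted p = 4.73e-05), with an interaction of -2.48 ± 0.48 (adjusted p = 0.0357). With the culture as a block the Mmp3 interaction was -2.46 and no longer called (adjusted p = 0.0622), and it was also lost without any 1 of 9 libraries, all but day 1 WT replicate 3, day 3 Bcl3-/- replicate 1 and day 3 WT replicate 3 (adjusted p between 0.0664 and 0.144). These 2 genes were 2 of 10 members, against 0.95% of all genes with a lower interaction and 0.172% with a higher one. The count over all genes, 183 in either direction (1.12%), was 292 with the culture as a block. The study itself named Mmp3 and Mmp9 from these libraries, so that their directions are not independent evidence. All members were chosen with earlier results of these data known, so their counts and ranks by p are not independent either.

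**Figure D4:**
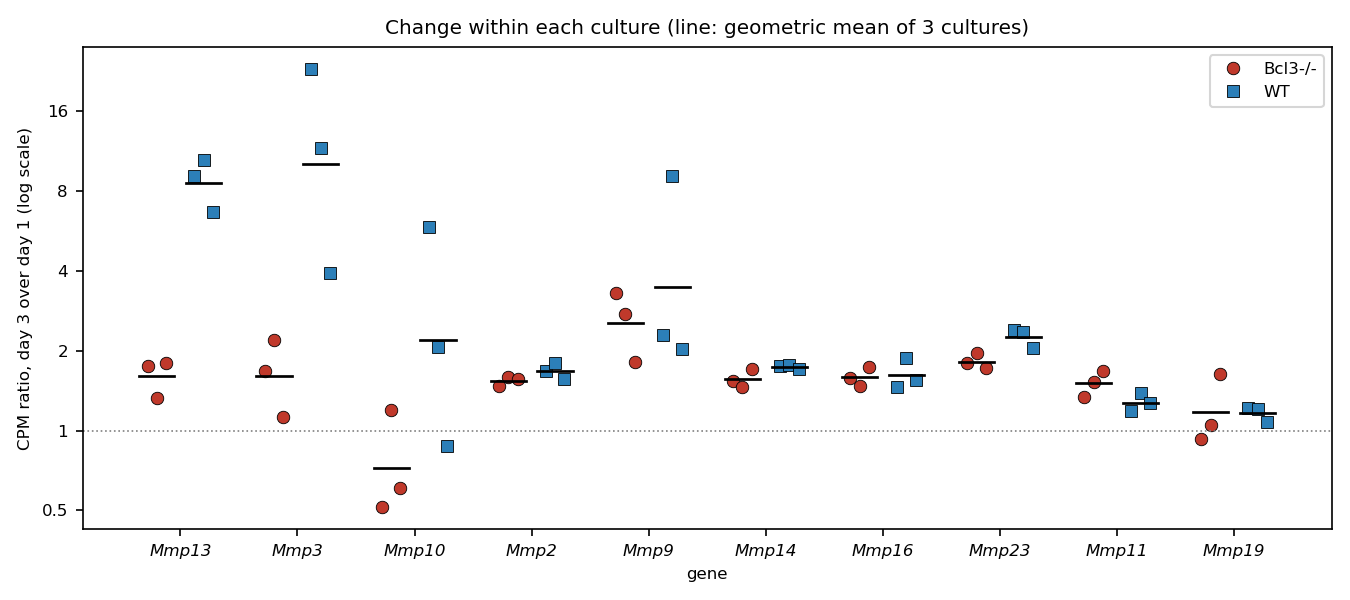
Points give the CPM ratio of day 3 over day 1 within each culture on a log axis, with cultures labelled Bcl3-/- left of WT cultures for each gene, and lines mark the geometric mean of 3 cultures. Ratios of Mmp13 lie between 1.33 and 1.79 in cultures labelled Bcl3-/- and between 6.69 and 10.5 in WT cultures, and those of Mmp3 between 1.12 and 2.20 and between 3.91 and 23.1.

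Over the 12 libraries, many members were alike, also some whose courses differed. The Pearson correlation of log2 CPM was 0.95 between Mmp3 and Mmp13, 0.97 between Mmp14 and Mmp23 and 0.96 between Mmp14 and Mmp16. It was also 0.90 between Mmp13 and Mmp14 and 0.87 between Mmp2 and Mmp13, so it did not sort the members by course. Mmp10 had values of -0.36 to 0.20 with the other members. Of all other genes tested, Uba7, Gbp9, Plekha4, Ifit2 and Parp10 followed Mmp13 most closely, at 0.980 to 0.987, and Gm5970, Gbp7, Ifi211, Iigp1 and Gbp3 followed Mmp3, at 0.981 to 0.987. For Mmp9 the nearest were Calr3, Cntn3, Coasy, Ecscr and Pygl, at 0.930 to 0.953. These values are descriptions, since all pairs share the libraries and their group differences. After group means were removed, the correlation with Mmp13 was 0.74 to 0.88 for its 5 genes and that with Mmp3 was 0.80 to 0.94. The genes were picked by their correlation over these same libraries, so high values here follow in part from that choice.

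Markers of osteoblasts and of other cells that make these enzymes were also read. Osteoblast markers, 10 genes, summed to 46360 to 49160 CPM in day 3 libraries labelled Bcl3-/- against 50070 to 52470 CPM in day 3 WT, and to 41970 to 44290 CPM in day 1 libraries labelled Bcl3-/- against 25570 to 37250 CPM in day 1 WT. Osteoclast markers, 8 genes, summed to 463 to 472 CPM against 310 to 423 CPM on day 3, and to 219 to 249.5 CPM against 155 to 199 CPM on day 1. Both sums were separate and higher in libraries labelled Bcl3-/- on day 1, but their members were mixed. Of 10 osteoblast markers, Col1a1, which makes up most of the sum, Alpl and Bglap2 were called higher on day 1. Sp7 was called lower (log2 -0.92, adjusted p = 0.00918) and 6 were not called, against 9.03% of all genes higher and 6.26% lower. Of 7 osteoclast markers tested, Ctsk alone was called (log2 0.49, adjusted p = 0.0185), near the 15.3% of all genes called in either direction. Oscar had a log2 fold change of -1.32 (adjusted p = 0.0577). Most of the osteoclast sum was Ctsk, at 126 to 397 CPM, while Calcr, Oscar, Dcstamp and Ocstamp stayed under 1 CPM in every library. Chondrocyte markers, 10 genes, summed to 332 to 426 CPM on day 3 and 792 to 1120 CPM on day 1 in libraries labelled Bcl3-/-, against 361 to 1523 CPM on day 3 and 773 to 2479 CPM on day 1 in WT libraries. Col2a1 gave 176 to 891 CPM of this in libraries labelled Bcl3-/- and 208 to 2310 CPM in WT libraries, while Ihh and Col10a1, markers of maturing and hypertrophic chondrocytes, reached at most 0.263 and 1.95 CPM. Of 7 chondrocyte markers tested, 1 was called higher on day 1 and 1 lower on day 3, against 9.03% and 5.6% of all genes. Macrophage markers, 12 genes, summed to 483 to 944 CPM against 758 to 1167 CPM on day 3, and to 363 to 394 CPM against 320 to 514 CPM on day 1. None of the 12 was called by genotype on day 1, against 15.3% of all genes, and 2 were lower on day 3, against 5.6%. Cx3cr1 had 0.21 to 1.36 CPM in day 3 libraries labelled Bcl3-/-, against 7.55 to 10.8 CPM in WT libraries. Over time, 9 rose and 1 fell in libraries labelled Bcl3-/- (16.2% and 17.2% of all genes), and 11 rose in WT (20.6%). The interaction was called for 1 of them, lower, against 0.95% of all genes. All 10 neutrophil markers were under 1 CPM, with sums of 0.526 to 1.94 CPM. On day 3, 3 of 10 osteoblast markers were called higher and 1 lower by genotype, against 4.78% and 5.6% of all genes. The part of these cells in the values of the members was not tested.

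Among the inhibitors, 4 of 5 listed genes were tested on day 1, where Timp3 and Timp2 were lower in day 1 libraries labelled Bcl3-/-, Reck was higher and Timp1 was not called. Their median log2 fold change was -0.51, against 0.00 over all genes, of which 15.3% were called in either direction. Timp3, which binds to the matrix, had 632, 695 and 572 CPM in libraries labelled Bcl3-/-, against 1460, 1116 and 863 CPM in WT libraries (log2 -0.86 ± 0.17, adjusted p = 0.00578). Timp2, which also takes part in Mmp2 activation by Mmp14, had 2656, 2360 and 2670 CPM, against 3845, 3098 and 3689 CPM (log2 -0.47 ± 0.10, adjusted p = 0.00817). Both genes, and Timp1, were lower in every library labelled Bcl3-/- than in any WT library, while Reck was higher in every one. Of all genes, 18.9% were separate and lower in this way, and 19.4% were separate and higher. Timp1 had 530, 428 and 556 CPM, against 659, 947 and 625 CPM (log2 -0.56 ± 0.23, adjusted p = 0.131). Reck, a membrane-anchored inhibitor, had a log2 fold change of 0.48 ± 0.15 (adjusted p = 0.0477), lost without any 1 of 10 libraries, all but day 1 WT replicate 3 and day 3 Bcl3-/- replicate 3 (adjusted p between 0.0514 and 0.184).

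On day 3 none of the 4 inhibitors was called by genotype, where 10.4% of all genes were. Over time in WT libraries, Timp3 fell by 1.42 ± 0.17 and Timp1 fell by 1.20 ± 0.24 on the log2 scale (adjusted p = 6.16e-05 and 0.0017) and Reck rose by 0.53 ± 0.15 (adjusted p = 0.0141), while in libraries labelled Bcl3-/- Timp1 fell by 1.11 ± 0.24 (adjusted p = 0.00359) and Timp3 had a value of -0.10 ± 0.17 (adjusted p = 0.701). Timp2 rose there by 0.33 ± 0.10 (adjusted p = 0.0216; 0.0747 without day 1 Bcl3-/- replicate 2 and 0.0509 without day 3 Bcl3-/- replicate 3). The interaction of Timp3 was 1.33 ± 0.24 (adjusted p = 0.0328), opposite in sign to those of Mmp13 and Mmp3. It was lost without any 1 of 9 libraries, all but day 1 WT replicate 3, day 3 Bcl3-/- replicate 1 and day 3 WT replicate 3 (adjusted p between 0.0565 and 0.111).

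**Figure D5:**
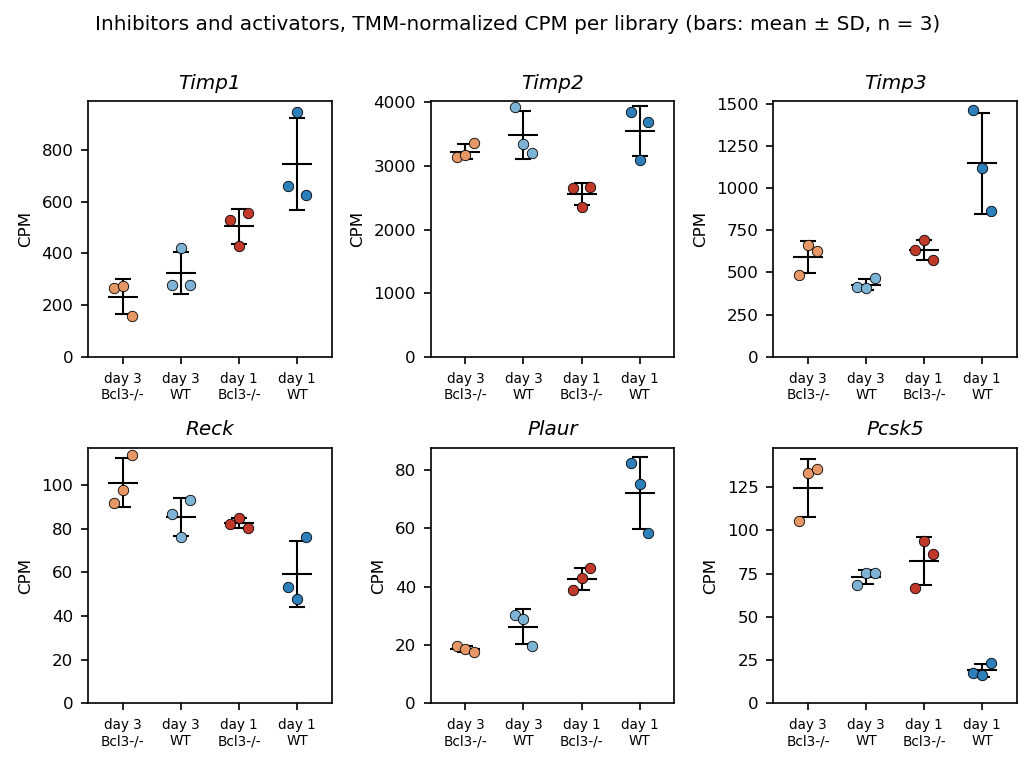
Panels plot the CPM per library, on linear axes from 0, of 4 inhibitors and of Plaur and Pcsk5, for day 3 Bcl3-/-, day 3 WT, day 1 Bcl3-/- and day 1 WT libraries, with mean and SD (n = 3). Timp3 lies between 572 and 695 CPM in day 1 libraries labelled Bcl3-/- and between 863 and 1460 CPM in day 1 WT libraries.

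Of the genes of metalloproteinase activation, Pcsk5 was higher and Plaur lower in day 1 libraries labelled Bcl3-/-. Pcsk5, a furin-like convertase, had 66.5, 93.8 and 86.2 CPM, against 17.5, 16.5 and 23.3 CPM in WT libraries (log2 2.10 ± 0.16, adjusted p = 8.72e-05), a difference close in size to that of Mmp13. On day 3 Pcsk5 was still higher, with 105, 133 and 136 CPM against 68.2, 75.1 and 75.4 CPM (log2 0.77 ± 0.15, adjusted p = 0.00824), and Serpine2, an inhibitor of serine proteases, was also higher (log2 0.53 ± 0.14, adjusted p = 0.0325). The Serpine2 call was lost without day 3 Bcl3-/- replicate 2 or 3 or day 3 WT replicate 1 or 2 (adjusted p between 0.0623 and 0.14). Over time, 2 of the 8 activation genes tested rose and 4 fell in each genotype. Of all genes, 16.2% rose and 17.2% fell in libraries labelled Bcl3-/-, and 20.6% and 17.9% in WT libraries. Plaur fell by 1.20 on the log2 scale in libraries labelled Bcl3-/- and by 1.45 in WT libraries (adjusted p = 0.000227 and 3.97e-05). Pcsk5 rose by 0.60 ± 0.15 in libraries labelled Bcl3-/- and 1.93 ± 0.16 in WT libraries. Its interaction of -1.33 ± 0.21 (adjusted p = 0.0256) had the sign of those of Mmp13 and Mmp3, and was lost without any 1 of 7 libraries, namely day 1 Bcl3-/- replicate 2 or 3, day 1 WT replicate 1 or 2, day 3 Bcl3-/- replicate 2 and day 3 WT replicate 1 or 2 (adjusted p between 0.0551 and 0.111). Plaur, the urokinase receptor, had a log2 fold change of -0.76 ± 0.16 on day 1 (adjusted p = 0.00813).

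The 13 other metalloproteinases in the annotation were scarce, and in each group 8 of them were under 1 CPM in all libraries. Of the 7 tested, none was called by genotype on either day, against 15.3% of all genes on day 1 and 10.4% on day 3. Mmp27 rose over time in libraries labelled Bcl3-/- (log2 1.75 ± 0.50, adjusted p = 0.0182), a call lost without day 1 Bcl3-/- replicate 1 or day 3 Bcl3-/- replicate 1 or 2 (adjusted p between 0.0518 and 0.0722). Fibrillar collagens, of which some are substrates of Mmp13 and Mmp14, were higher in day 1 libraries labelled Bcl3-/- for 6 of 11 genes and lower for none, against 9.03% of all genes higher and 6.26% lower, with a median log2 fold change of 0.70 over the collagens and 0.00 over all genes. Col11a1, Col27a1, Col24a1 and Col3a1 had log2 fold changes of 0.71 ± 0.08, 0.96 ± 0.12, 1.21 ± 0.17 and 1.19 ± 0.17 (adjusted p between 0.000591 and 0.00145). On day 3, Col27a1 (log2 0.69 ± 0.12, adjusted p = 0.00494) and Col24a1 (log2 0.81 ± 0.17, adjusted p = 0.0105; 0.0502 without day 3 WT replicate 1) were higher and Col2a1, a cartilage collagen, was lower (log2 -1.91 ± 0.55, adjusted p = 0.0459). The Col2a1 call was lost without any 1 of 9 libraries, all but day 1 WT replicate 1 or 3 and day 3 WT replicate 3 (adjusted p between 0.0623 and 0.24), and the log2 fold change was -1.11 without day 3 WT replicate 1. Over time 5 collagens rose and 2 fell, Col5a1 and Col2a1, in libraries labelled Bcl3-/-, where 16.2% of all genes rose and 17.2% fell. In WT libraries 8 rose and 1 fell, Col5a1, against 20.6% and 17.9% of all genes. Of 12 transcription factors known to act on metalloproteinase promoters, 2 were called by genotype on day 1, about the share of all genes called (15.3%). Fos was higher (log2 0.89 ± 0.14, adjusted p = 0.00217) and Fosl1 lower (log2 -0.90 ± 0.18, adjusted p = 0.0071) on that day. Both encode partners in AP-1, as does Junb, which was lower on day 3 (log2 -0.66 ± 0.15, adjusted p = 0.0184; 0.0539 to 0.0849 without day 3 Bcl3-/- replicate 2 or 3 or day 3 WT replicate 1). Over time, 1 of the 12 factors, Jund, rose and 7 fell in libraries labelled Bcl3-/-, against 16.2% and 17.2% of all genes. In WT libraries 6 fell, against 17.9% of all genes, with Fos, Fosl1, Junb and Jun lower in both genotypes. The Jund call was lost without day 1 Bcl3-/- replicate 1 or 2 or day 3 Bcl3-/- replicate 3 (adjusted p between 0.0589 and 0.0758). The interaction of Fos was -1.20 ± 0.20 (adjusted p = 0.0281), lost without any 1 of 8 libraries, all but day 1 Bcl3-/- replicate 1, day 1 WT replicate 3, day 3 Bcl3-/- replicate 1 and day 3 WT replicate 3 (adjusted p between 0.0586 and 0.113). None of 7 cytokines known to induce metalloproteinases was called by genotype on day 1, against 15.3% of all genes. On day 3, 1 of them, Lif, was lower (log2 -1.24 ± 0.23, adjusted p = 0.00643), against 5.6% of all genes. Over time, 7 of 7 cytokines fell in libraries labelled Bcl3-/-, against 17.2% of all genes, and 1, Il11, in WT libraries, against 17.9% of all genes, with no interaction called among them.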

How the data were processed

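RNA of 12 libraries was sequenced after SMART-seq v4 amplification. The submitters' processing notes list Trim Galore, TopHat2 (GRCm38), HTSeq, Cufflinks and DESeq2; versions and the strand setting were not given in the sources used here. The counts deposited by the authors are raw HTSeq tallies, and their deposited FPKM values are Cufflinks estimates; 5 count entries for reads outside genes, 12.27 to 14.72% per library, were left out. FPKM of 49318 genes were used, and 49 entries with several values were left out.

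Counts were filtered by filterByExpr, scaled by TMM and fitted with edgeR 4.0.16 (R 4.3.3; quasi-likelihood test, 4 groups, Benjamini-Hochberg over all genes). CPM are TMM-normalized, and log2 CPM used a prior count of 2. Intervals are ±1.96 SE, which is narrower than intervals based on the quasi-likelihood test would be, so calls rest on the test alone. Alternatives were DESeq2 1.42.0, RLE and upper-quartile scaling, no filter, a floor of 1 CPM in 6 or more libraries, limma 3.58.1 on log2(FPKM + 1) or log2(FPKM + 0.1), the first also with a floor of 1 FPKM in 3 or more libraries, only the 6 libraries compared, blocks by culture and by title number, and leaving out each library. Depth limits the scarce genes, and counting error alone is not the spread between cultures. No pair of the 66 library pairs was a copy. P-values of the main fit measure the spread between libraries within the 4 groups. Over time and for the interaction they treat the days of a culture as independent, and only the culture block uses that pairing.

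Culture codes in the labels pair the days only on the reading that the libraries of a culture share their animals. Deviations of same-numbered libraries correlated at -0.16 to -0.02 over time in libraries labelled Bcl3-/- and at 0.24 to 0.33 in WT. Between genotypes they correlated at -0.06 to 0.04 on day 1 and 0.06 to 0.21 on day 3.

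Members and gene lists were chosen with earlier results of these data known. The text names all members, up to 4 genes of most other lists with the smallest adjusted p and those going the other way, and the 5 genes most alike to Mmp13, Mmp3 and Mmp9. For cell type markers, and for some comparisons of other lists, mainly sums or counts of calls are given, so some called genes are unnamed. Names and gene positions follow GENCODE M21, and upstream sequences are RefSeq's. One gene of the activation list is not reported here. The fits were tested on simulated data.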

Additional observations from a re-analysis of the deposited data

Results flagged for a closer look

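The difference between the genotypes' changes over time passed the test for 2 of the 10 members. For Mmp13 it was -2.39 on the log2 scale, and for Mmp3 it was -2.48. The days of a culture were read as sharing animals, and with the culture as a block only Mmp13 passed the test (Mmp3 adjusted p = 0.0622). For both genes the genotype difference of day 1, higher in libraries labelled Bcl3-/-, was not past the test on day 3.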

How the results depend on the processing

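Of the members' values under alternatives, 1019 kept their direction and their side of the threshold, 46 lost a call, 25 gained one and 19 changed sign; none of the 19 came from a called value. The cause of these changes was not tested. On day 3 the count of members called by genotype, 3, was 5 with DESeq2 and with no count filter, 1 with limma on log2(FPKM + 1) and on log2(FPKM + 0.1), and 1 to 4 with a library left out (1 without day 3 WT replicate 1). The count for the interaction, 2, was 1 under each block and under each of the 3 FPKM fits, and 1 to 2 with a library left out. Over all genes, the day 1 genotype count of 2494 was 1437 and 1494 in FPKM fits and 1253 to 2905 without a library, and the day 3 count of 1693 was 1030 and 978 in FPKM fits, 814 with only the 6 libraries compared and at least 698 without a library. The interaction count of 183 was 488 with DESeq2, 552 with no count filter, 5 and 4 in FPKM fits and 1 to 475 without a library.

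Signs changed as follows. Mmp10 on day 1 was 0.02 with log2(FPKM + 1) and -0.98 to 0.34 without a library, and over time in libraries labelled Bcl3-/- it was -0.91 to 0.41. The Mmp3 difference on day 3 was -0.43 to 0.13 and that of Bcl3 on day 1 was -0.090 to 0.068. The interaction of Mmp9 was 0.064 with log2(FPKM + 1), filtered or not, and -1.001 to 0.070 without a library. That of Mmp19 was -0.007 with log2(FPKM + 1), filtered or not, -0.015 with log2(FPKM + 0.1) and -0.21 to 0.20 without a library, and that of Mmp16 was -0.056 to 0.057. Rises over time of Mmp13 in libraries labelled Bcl3-/- (adjusted p = 0.0547 and 0.0521) and of Mmp9 in WT (0.159 and 0.0634) were not called with log2(FPKM + 1) and log2(FPKM + 0.1).

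Title numbers do not pair the genotypes. With that replicate block, Mmp9 on day 1 was called (log2 1.53, adjusted p = 0.0282), the Mmp3 interaction was not (log2 -2.48, adjusted p = 0.0616), and the count of genes with an interaction was 156. With the culture as a replicate block, the Mmp3 interaction was lost (log2 -2.46, adjusted p = 0.0622), and no other call of a member changed under the title-number block, or under the culture block in the time and interaction results, to which alone it applies. Of the other genes named, Col2a1 on day 3 was lost with title numbers as the block (adjusted p = 0.056).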
